A study of Mus musculus with 4 samples.

Results

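The 10 germline genes described here are Dazl, Ddx4, Sycp1, Sycp3, Mael, Tdrd1, Hormad1, Stk31, Piwil1 and Piwil2. They were listed by name, out of 21938 protein-coding genes of GENCODE release M21, as genes that are active in germ cells and kept silent in somatic cells, and Foxr2 binding was read at each of them. Binding was measured by CUT&RUN, in which an antibody guides a nuclease to a protein on chromatin so that the DNA around it is released and sequenced. The antibody recognised the V5 tag and was used on 2 replicates of a Foxr2 p53LOF line and 2 replicates of a control line without V5 (V5 control).

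Both lines came from brain tumors of C57BL/6J mice, started by in utero electroporation (IUE) of embryonic neural stem cells, and were grown as neurospheres. The Foxr2 p53LOF cells carry an integrated piggyBac vector in which the CAG promoter, active in most cell types, drives FOXR2 with V5 at its C-terminus and GFP, and Trp53 was targeted in them by CRISPR/Cas9. The V5 control cells have the genotype H3.3G34R and come from another IUE model, so the groups differ in their oncogene and their tumor of origin as well as in the tag. The replicates of a group are libraries of cultured cells, with nothing to say that they came from separate tumors, so the spread between them may be technical. The Foxr2 p53LOF lists held 31909 peaks in replicate 1 and 38580 in replicate 2, and the V5 control lists 308 and 124. Expression of the 10 genes was not measured in these files, so their silence in these cells is the label of the list and was not checked.

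Germline genes serve the steps that are particular to eggs and sperm: translational control of germ cell messages, pairing and recombination of homologous chromosomes in meiosis, and defence of the genome by small PIWI-interacting RNAs (piRNAs). Many of them start in CpG-rich DNA, which in most other genes marks an active promoter in nearly every tissue. In somatic cells they are held silent by DNA methylation together with the Polycomb complex PRC1.6, whose MGA and MAX subunits recognise the E-box CACGTG and whose E2F6 subunit recognises the E2F core TCCCGC.

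Of the 3 motifs searched, the E-box was the one found in most of these promoters, and the stretches around it are shown for that reason. RefSeq promoter sequences (GRCm38.p6, the build of the files, from 250 bases before to 50 after a start) were matched for 9 of the 10 genes, Piwil2 being the other one. The E-box, read on both strands, was found in 8 of the 9, all but Dazl, and in 8.03% of 20150 promoters of protein-coding genes. Each line gives 20 bases either side of the box nearest the start, in the direction of transcription, with the box in capitals.
Ddx4 (chr13:112652314-112652359, minus strand): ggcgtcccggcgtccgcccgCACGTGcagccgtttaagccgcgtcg
Sycp1 (chr3:102936169-102936214, minus strand): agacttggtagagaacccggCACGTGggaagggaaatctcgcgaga
Sycp3 (chr10:88459524-88459569, plus strand): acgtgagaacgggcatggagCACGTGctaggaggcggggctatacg
Mael (chr1:166238942-166238987, minus strand): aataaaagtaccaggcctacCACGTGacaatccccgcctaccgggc
Tdrd1 (chr19:56826178-56826223, plus strand): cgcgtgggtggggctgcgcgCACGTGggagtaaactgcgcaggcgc
Hormad1 (chr3:95559637-95559682, plus strand): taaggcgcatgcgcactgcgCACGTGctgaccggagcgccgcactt
Stk31 (chr6:49395464-49395509, plus strand): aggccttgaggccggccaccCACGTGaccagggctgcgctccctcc
Piwil1 (chr5:128736072-128736117, plus strand): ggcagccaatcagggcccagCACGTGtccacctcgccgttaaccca

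The first base of the box lay 29 bases before the RefSeq start of Ddx4, 94 before that of Sycp1, 43 before that of Sycp3 and 223 before that of Mael. In Tdrd1 it lay 11 bases before the start, in Hormad1 20, in Stk31 120 and in Piwil1 154. Where RefSeq lists several starts, the one nearest to a GENCODE start was used, and for Tdrd1, where several matched, the most upstream. From the second start of Stk31 the same box lay 55 bases away, from that of Hormad1 22 and from that of Tdrd1 77, while the promoter of the last Tdrd1 start, inside the gene, held no box. The E2F core TCCCGC, on either strand, was found in 5 of the 9 (Ddx4, Sycp1, Sycp3, Mael and Hormad1) and in 26.5% of all promoters. The ETS core CCGGAAG, which the ETS family of transcription factors recognises, was found in 0 of the 9 and in 11.9% of all promoters.

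No peak of either Foxr2 p53LOF replicate lay within 1 kb of any of the 30 transcript starts of the 10 genes. The count was 0 of 10 in replicate 1, where 54.3% of all protein-coding genes had such a promoter peak, and 0 of 10 in replicate 2, where 55.3% did. Over all genes, 52.3% had a promoter peak in both replicates, and 40.0% had one in both after the study's filter on peaks (−log10 q above 6, fold above 6, length under 10000 bp, no overlap with a V5 control peak). The 10 genes stood at 0 on each of these counts. The study then also kept only stretches shared by both replicates and by open chromatin peaks of its mouse model. That last step was not part of the filter used here. In the V5 controls the count was also 0 of 10, where 0.128% and 0.0912% of all genes had a promoter peak, and the nearest control peak lay 1520625 bp or more from a start of any of the 10. No test between the lines was made, and with 2 libraries against 2 a two-sided exact permutation test could not go below a p of 0.333.

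A peak missing from a list is a place where the caller found too little signal. The weakest summit called in replicate 1 held 6 fragments, a fold of 3.09 over the background of the library, and the weakest in replicate 2 held 8 fragments, a fold of 2.96. Signal under these levels at a promoter was not detectable in the lists.

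**Figure D1:**
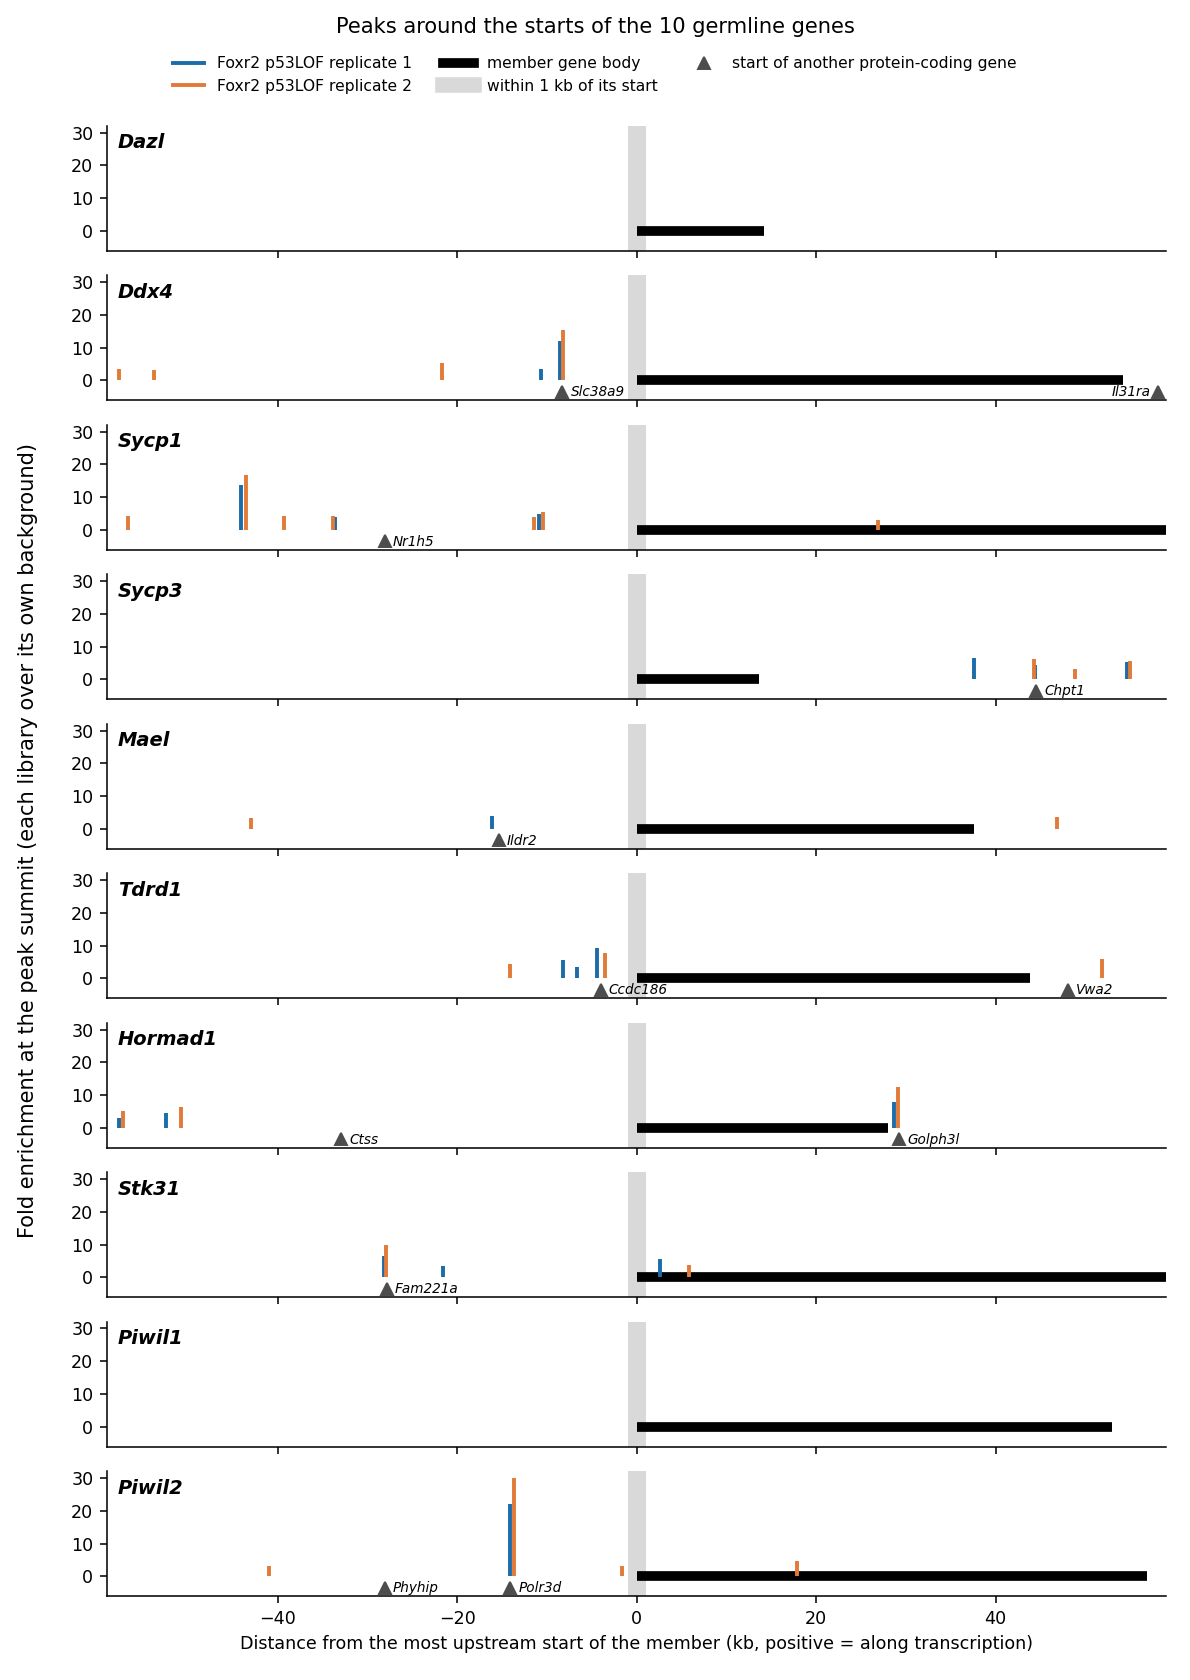
Peaks of the Foxr2 p53LOF replicates (bar height, fold enrichment at the summit over the background of the same library) against distance from the most upstream start of each of the 10 genes in kb, with the gene body in black, the stretch within 1 kb of the start in grey and starts of other protein-coding genes as triangles. The grey stretches hold no bar, and the tallest bars, 22.1 and 29.9, stand at the start of Polr3d upstream of Piwil2.

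In the gene body with 10 kb on either side, 4 of the 10 genes had a peak in replicate 1 and 7 in replicate 2, against 66.2% and 66.9% of all genes. Ddx4, Tdrd1, Hormad1 and Stk31 had one in both replicates, 4 of 10 against 63.8% of all genes, and 3 of 10 did after the study's filter, against 50.6%. Sycp1, Mael and Piwil2 had one in replicate 2 only, and Dazl, Sycp3 and Piwil1 had none. The V5 controls gave 0 of 10, against 0.524% and 0.26% of all genes. The gene regions of the 10 measure 33.7 to 138 kb with a median of 68.4 kb, longer than the median of 37.4 kb over all genes, so a peak in the region had more room to occur. These regions held 7 peaks in replicate 1 and 9 in replicate 2, of which 3 pairs overlapped between the replicates.

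All 3 overlapping pairs lay at the start of a neighbouring gene, and they were the only peaks that passed the study's filter. Their folds were 7.95 to 11.9 in replicate 1 and 7.88 to 15.4 in replicate 2. The other 4 peaks of replicate 1 had folds of 3.53 to 5.74 and the other 6 of replicate 2 had folds of 2.96 to 5.91, with no overlap between replicates. The nearest protein-coding start was that of the germline gene itself for 1 of the 7 peaks in replicate 1 and 5 of the 9 in replicate 2.

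Among the germ cell RNA regulators, Ddx4 (Vasa), an RNA helicase of germ granules on chromosome 13 from 112598333 to 112652475, lay next to the strongest of these peaks. In replicate 1 the peak ran from 112660163 to 112661884 with 26 fragments at its summit, a fold of 11.9 (95% Poisson interval 7.95 to 17.3, counting error only) at the 88.4 percentile of its library. In replicate 2 it ran from 112659297 to 112662173 with 46 fragments, a fold of 15.4 (11.4 to 20.5) at the 92.3 percentile. The summits lay 37 and 184 bp from the start of Slc38a9, which encodes an amino acid sensor of the lysosome, and 8343 and 8490 bp from the start of Ddx4. A weaker peak of replicate 1 farther along Slc38a9 had 7 fragments and a fold of 3.53.

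The 250 bases before the RefSeq starts of this pair are set side by side, since Foxr2 peaks covered the second in both replicates and the first in neither. Capitals mark the E-box and the E2F core (here on the other strand, as GCGGGA).
Ddx4 (chr13:112652311-112652560, minus strand): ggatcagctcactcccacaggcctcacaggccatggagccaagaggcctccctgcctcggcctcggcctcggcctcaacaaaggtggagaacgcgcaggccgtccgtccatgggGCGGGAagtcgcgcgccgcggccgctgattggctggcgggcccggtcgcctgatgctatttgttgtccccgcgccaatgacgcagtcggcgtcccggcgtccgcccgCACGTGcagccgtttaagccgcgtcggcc
Slc38a9 (chr13:112660516-112660765, plus strand): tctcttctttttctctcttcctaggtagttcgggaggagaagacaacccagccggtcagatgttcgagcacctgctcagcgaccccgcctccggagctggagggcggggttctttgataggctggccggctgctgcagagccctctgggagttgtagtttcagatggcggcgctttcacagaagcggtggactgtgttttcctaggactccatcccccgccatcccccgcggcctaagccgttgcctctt

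The Ddx4 stretch holds 31 CpG dinucleotides and 70.4% G and C, and the Slc38a9 stretch 15 CpG and 60.0%. The start without a called peak was therefore the more CpG-rich of the pair. Neither the E-box, the E2F core nor the ETS core is written in the Slc38a9 stretch, and none of the 3 was found in the promoters of Ccdc186 and Golph3l, the neighbours of Tdrd1 and Hormad1 with overlapping peaks at their starts. The promoter of Vwa2, on the other side of Tdrd1 and without a promoter peak, holds an E-box and an E2F core.

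Dazl, an RNA-binding protein that promotes translation in germ cells, lies on chromosome 17 from 50279395 to 50293636 in a stretch poor in peaks. The nearest peak to any of its 6 starts was 176377 bp away in replicate 1 and 93245 bp away in replicate 2. These distances are longer than those of 86.7% and 81.6% of all genes.

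The genes of the synaptonemal complex and the meiotic chromosome axis had peaks only at a distance or of low fold. Sycp1, the transverse filament that zips paired chromosomes together, lies on chromosome 3 from 102818499 to 102936100. Its region held 1 intronic peak in replicate 2, with 8 fragments and a fold of 2.96 (1.46 to 5.51), which is the lowest fold called in that library. The peaks nearest to its starts were 10330 and 10407 bp away, upstream and just outside the region.

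Sycp3, of the axis of each chromosome, lies on chromosome 10 from 88459569 to 88473236 inside the gene body of Chpt1, which is transcribed the other way, and had no peak in its region, the nearest being 37522 and 43750 bp from its starts. Hormad1, an axis protein that monitors pairing, lies on chromosome 3 from 95559677 to 95587671. Past its 3′ end stood a peak with 17 fragments and a fold of 7.95 (4.82 to 12.5) in replicate 1 and 37 fragments and a fold of 12.5 (8.89 to 17.1) in replicate 2. The summits were 347 and 418 bp from the start of Golph3l, which encodes a Golgi protein, and 28909 and 28838 bp from the start of Hormad1.

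The other 5 genes act in the piRNA pathway or encode related Tudor domain proteins. Tdrd1, a Tudor domain scaffold that binds PIWI proteins, lies on chromosome 19 from 56826209 to 56870012. Upstream of it stood a peak with 20 fragments and a fold of 9.28 (5.84 to 14.1) in replicate 1 and 23 fragments and a fold of 7.88 (5.12 to 11.7) in replicate 2. Its summits lay 198 and 226 bp from the start of Ccdc186 and 4217 and 3793 bp from the start of Tdrd1, and its edges came to 3398 and 2902 bp from Tdrd1. No other overlapping pair of peaks came nearer to a transcript start of any of the 10 genes. The other peaks of the Tdrd1 region, with folds of 5.74 and 3.53 in replicate 1 and 5.91 in replicate 2, did not overlap a peak of the other replicate.

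Stk31, a Tudor domain protein of the germ line with a kinase domain, lies on chromosome 6 from 49395604 to 49469501 and had 1 intronic peak in each replicate. The peak of replicate 1, from 49398083 to 49398516, had 12 fragments and a fold of 5.74 (3.18 to 9.70), with its summit 2771 bp from the start. The peak of replicate 2, from 49401006 to 49401400, had 10 fragments and a fold of 3.61 (1.90 to 6.37), with its summit 5607 bp from the start. The peaks did not overlap each other, and neither had a fold above 6.

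Piwil2 (MILI), a PIWI protein that loads piRNAs, lies on chromosome 14 from 70372477 to 70429383. It had the peak nearest to any start of the 10 genes, an upstream peak of replicate 2 whose edge was 1771 bp from the start, with 9 fragments and a fold of 3.29 (1.68 to 5.94) at the 2.85 percentile of its library. An intronic peak of the same library had 13 fragments and a fold of 4.60 (2.60 to 7.63). Neither place had a peak in replicate 1, where the nearest one was 12500 bp away.

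Mael, which acts in transposon silencing, lies on chromosome 1 from 166201201 to 166238747 and had a single peak past its 3′ end in replicate 2, with 10 fragments and a fold of 3.61. Piwil1 (MIWI), the PIWI protein of late spermatogenesis, lies on chromosome 5 from 128702524 to 128755474 and was the most distant of the 10. Its nearest peaks were 267827 and 267808 bp from its starts, farther than for 89.8% and 89.6% of all genes.

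Over the 10 genes, the median distance from a start to the nearest peak was 14058 bp in replicate 1 (range 2448 to 267827) and 19354.5 bp in replicate 2 (range 1771 to 267808). Over all genes the median was 1 bp and 0 bp, since most starts that have a peak lie inside it. In replicate 1, 7 of the 10 genes were over 10 kb from a peak, as were 37.9% of all genes, and in replicate 2, 6 of the 10 were, against 37.1%. The 75th percentile of all genes was 46622 bp in replicate 1, which Dazl and Piwil1 passed, and 43223.25 bp in replicate 2, which Dazl, Sycp3 and Piwil1 passed. The other genes lay between the median and the 75th percentile of all genes.

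**Figure D2:**
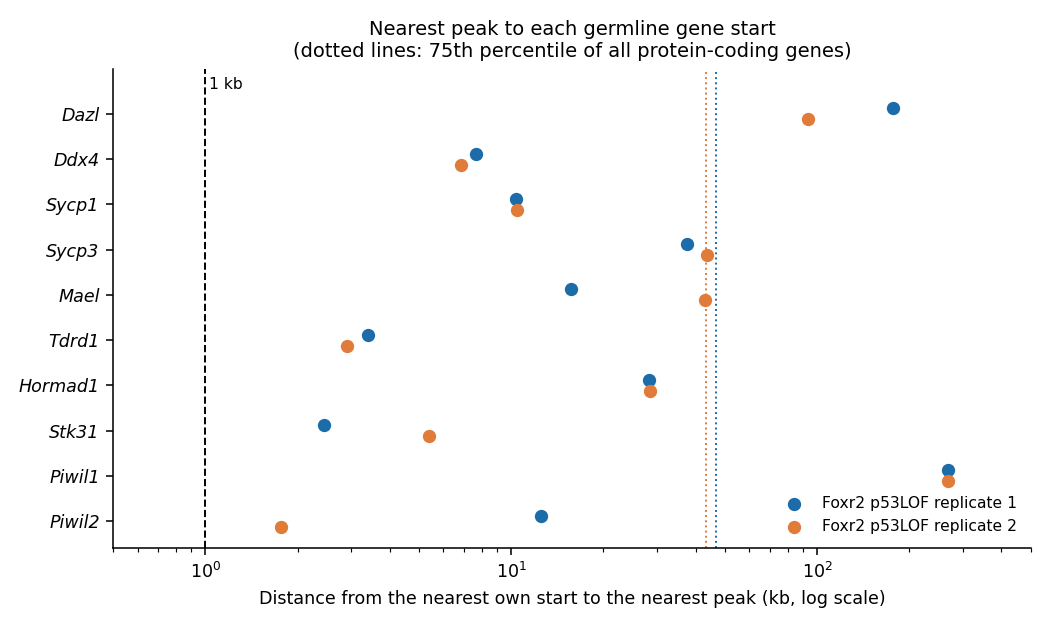
Distance in kb (log scale) from the nearest transcript start of each of the 10 genes to the nearest peak of each Foxr2 p53LOF replicate, with 1 kb dashed and the 75th percentile of all protein-coding genes dotted. Every point lies beyond 1 kb, from 1771 bp for Piwil2 in replicate 2 to 267827 bp for Piwil1 in replicate 1.

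Several genes on either side of the 10 had promoter peaks. Of the 20 flanking genes, the nearest protein-coding gene on each side that does not overlap the germline gene, 10 had a promoter peak in each replicate and 9 (45.0%, against 52.3% of all genes) had one in both. The highest folds belonged to both neighbours of Piwil2: Polr3d, a subunit of RNA polymerase III, with 22.1 and 29.9, and Slc39a14, a metal ion transporter, with 17.7 and 15.8. Gnptab, which encodes the enzyme that marks proteins for the lysosome and flanks Sycp3, had folds of 6.63 and 8.21, and Tspan2, a tetraspanin of oligodendrocytes beside Sycp1, had 6.63 and 10.5. Fam221a beside Stk31 had 6.63 and 9.86, and Plcl2 beside Dazl had 4.86 and 5.26. Neither flanking gene of Mael or of Piwil1 had a promoter peak in both replicates.

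For 8 of the 10 genes the DNA composition of the promoter was that of promoters at which Foxr2 peaks were frequent. The ratio of observed to expected CpG in 1 kb around the most upstream start was 0.653 to 0.744 for these 8, above the cut of 0.6 used here for CpG-rich starts. Of all protein-coding genes above that cut, 8656 of 10076 (85.9%) had a promoter peak in both replicates, against 0 of these 8. Of the genes below it, 2810 of 11862 (23.7%) had one.

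Each gene was also set beside all genes whose ratio lay within 0.1 and whose G and C content lay within 5 percentage points of its own. For Stk31 87.1% of such genes had a promoter peak in both replicates, for Hormad1 85.7%, for Dazl and Sycp1 84.2% each, and for Ddx4 84.1%. The shares for Mael, Tdrd1 and Sycp3 were 81.8%, 81.2% and 80.1%. Piwil2, with a ratio of 0.459, and Piwil1, with 0.223, had less CpG, and the shares of their like were 44.8% and 17.2%. At the inner Piwil1 start, at 128736174, the ratio was 0.504 and the share 54.1%. The RefSeq start used for the Piwil1 E-box, at 128736246, lies near this inner start and not near the most upstream one. Chromatin state and DNA methylation were not measured here, and their part in the missing peaks was not tested.

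**Figure D3:**
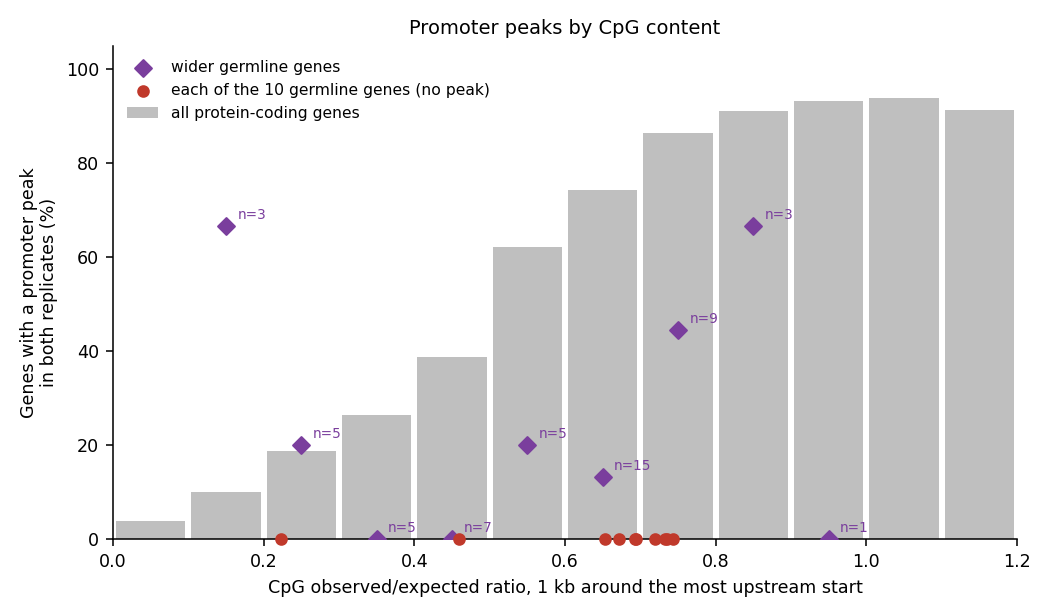
Share of genes with a promoter peak in both Foxr2 p53LOF replicates (%) against the ratio of observed to expected CpG in 1 kb around the most upstream start, with all protein-coding genes as bars by steps of 0.1, the wider germline genes as diamonds with their number, and each of the 10 germline genes as a red point at 0%. The bars rise with CpG content up to a ratio of 1.1, and 8 red points lie under bars of 74.4% and 86.5%.

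Over all 20150 promoters, the E-box was written in 10.2% of those with a promoter peak in both replicates and 5.09% of the others, the E2F core in 36.4% and 13.1%, and the ETS core in 17.8% and 3.86%. Among 9731 promoters of CpG-rich genes, 88.3% of those with an E-box belonged to genes with a promoter peak in both replicates, as did 87.1% of those without one. An E-box was written in 10.7% of the CpG-rich promoters with such a peak and, leaving out the 10 genes, in 8.80% of those without a peak. For the E2F core these shares were 40.0% and 40.0%. The ETS core was written in 20.3% with a peak and 7.19% without, and 94.7% of CpG-rich promoters that held it had a peak against 85.5% of the others. A match to these letters is a description of the sequence and not a bound site.

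A wider list of 53 germline genes was read in the same way. Promoter peaks were found in 12 (22.6%) in replicate 1, 14 (26.4%) in replicate 2 and 12 (22.6%) in both, 8 of them after the study's filter, and 39 had none. Unlike the 10 genes, the wider list thus held starts with reproducible peaks, at a share under the 52.3% of all genes. Of the 28 with a CpG-rich start, 8 (28.6%) had a peak in both replicates, against the 85.9% of all such genes. The V5 controls had none.

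Of the 21 genes of meiotic chromosomes 6 had a promoter peak in both replicates. Prdm9, the methyltransferase that places recombination hotspots, had folds of 8.84 and 12.8 with summits 317 and 281 bp from its start. Meiob, a factor of meiotic recombination, had folds of 9.28 and 11.8, and Msh5, which stabilises crossover intermediates, had 10.2 and 8.87. These 3 genes have no other protein-coding start within 1 kb. Stag3, the meiotic cohesin subunit, had folds of 7.07 and 8.54 at a start shared with other genes, and Syce2 (4.42 and 3.61) and Meioc (4.86 and 4.27) did not pass the study's filter. Only replicate 2 had a promoter peak at Spo11 (fold 2.96) and at Msh4 (fold 4.60).

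Of the 16 further genes of the piRNA pathway 3 had a promoter peak in both replicates: Tdrkh, a mitochondrial partner of PIWI proteins, with folds of 16.3 and 19.05, Tdrd7, a Tudor domain protein of germ granules, with 9.28 and 14.1 and summits 1028 and 1030 bp from its start, and Exd1, with 6.63 and 16.1 at a start shared with Chp1. Of the 16 genes of germ cell identity 3 had one. Nanos3, a translational repressor of primordial germ cells, had folds of 5.74 and 6.57, and Brdt, the testis bromodomain protein, had 6.63 and 5.59. Neither passed the study's filter in both replicates, and the Nanos3 summits lay 1090 and 1820 bp from its start, with the peak reaching into the window. The Ddx25 peak, with folds of 15.5 and 21.03, had summits 179 and 173 bp from the start of Pus3 and 1117 and 759 bp from that of Ddx25.

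Starts shared between genes raise such counts, because a peak then counts for both. Without genes that have another protein-coding start within 1 kb, 9 of 48 wider germline genes (18.8%) had a promoter peak in both replicates, against 46.7% of all such genes. None of the 10 germline genes has another protein-coding start so near, and their count of 0 stands beside the same 46.7%. Over the wider genes with a peak in both replicates, the median fold was 7.95 in replicate 1 and 10.3 in replicate 2, against 9.28 and 10.5 over all genes with one. Of the wider genes with a promoter entry, 11 had a peak in both replicates and 33 had none. The E-box was written in 4 of the 11 and 10 of the 33, and the E2F core in 7 of the 11 and 10 of the 33. The ETS core was written in 0 of the 11 and 6 of the 33.

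The genes that encode the silencing machinery were read last. The 25 genes belong to PRC1.6, DNA methylation, or H3K9 methylation and related repression. A promoter peak was found in 21 (84.0%) in replicate 1 and 23 (92.0%) in replicate 2. In both replicates 21 had one, against 52.3% of all genes. After the study's filter 18 of them had one in both, against 40.0% of all genes. The list is mostly of CpG-rich starts, and of its 19 genes with such a start 16 (84.2%) had a peak in both replicates, near the 85.9% of all CpG-rich starts. Of its 6 genes below the cut, 5 (83.3%) had one, against 23.7% of all such genes. CpG content was read at the most upstream start, while a peak counted at any transcript start. The peak of a gene below the cut may therefore lie at another of its starts, with a different CpG content.

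In PRC1.6, 12 of 14 genes (85.7%) had a promoter peak in both replicates. All 14 have a CpG-rich start, and 85.9% of all genes with a CpG-rich start had such a peak. Mga had folds of 11.9 and 16.8, Max 10.6 and 15.8, and L3mbtl2 12.8 and 15.4. Rybp had 15.5 and 17.7, and Cbx3, the HP1 gamma gene, had 34.9 and 40.1 at a start shared with Hnrnpa2b1. The PRC1.6 genes E2f6 and Pcgf6 reached the list of replicate 2 alone (folds 4.60 and 3.61).

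Of the DNA methylation genes, Dnmt1, which copies methylation after replication, had folds of 9.72 and 19.05, and its partner Uhrf1 had 11.5 and 13.8. Dnmt3a, a de novo methyltransferase, had 4.42 and 5.26, under the study's minimum fold of 6 in both replicates. Dnmt3b and Dnmt3l had no promoter peak. All 6 genes of H3K9 methylation and related repression had one in both replicates, against 52.3% of all genes. After the study's filter 5 had one in both. Among the 6 were Atf7ip (31.4 and 40.7) and the methyltransferase Setdb1 (7.51 and 7.88). The corepressor Trim28 had 23.4 and 24.0, with another protein-coding start within 1 kb. Kdm5c (4.86 and 5.59) did not pass the filter, and the Ehmt2 summits lay nearer to the start of C2 than to its own.

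**Figure D4:**
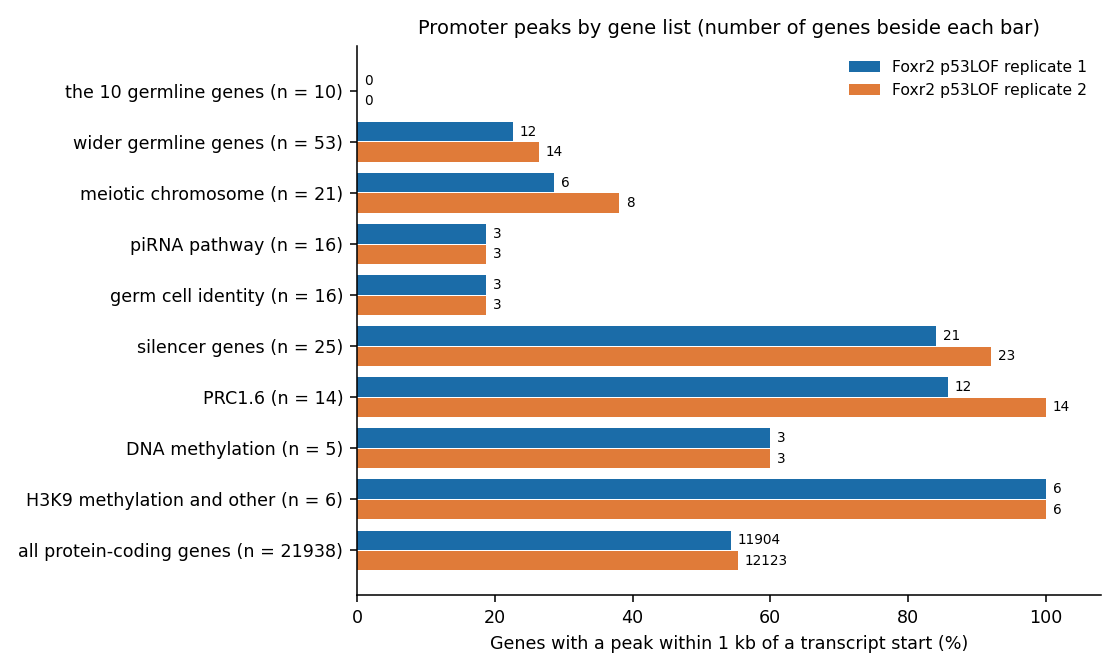
Share of genes with a peak within 1 kb of a transcript start (%) in each Foxr2 p53LOF replicate, for the 10 germline genes, the wider germline list and its 3 groups, the silencer list and its 3 groups, and all protein-coding genes, with the number of genes beside each bar. The 10 germline genes stand at 0, the wider list at 22.6% and 26.4%, and all genes at 54.3% and 55.3%.

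**Figure D5:**
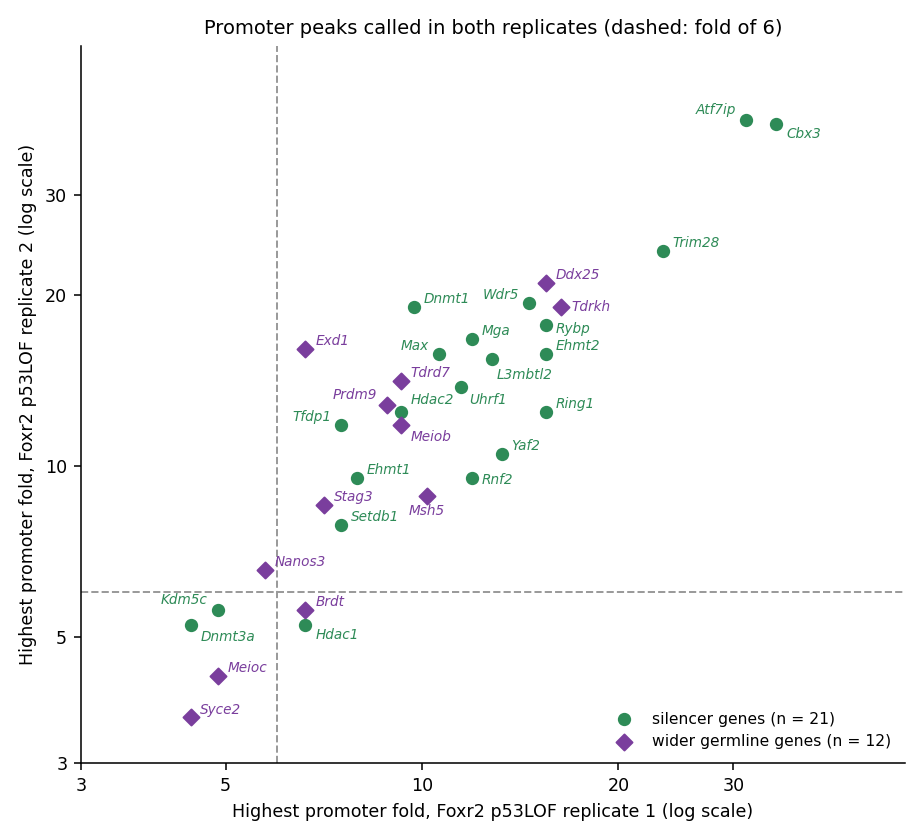
Highest fold of the promoter peaks in Foxr2 p53LOF replicate 1 against replicate 2 (log scales) for the 12 wider germline genes and 21 silencer genes with a promoter peak in both replicates, with dashed lines at the study's minimum fold of 6. The germline genes reach 16.3 in replicate 1 (Tdrkh) and 21.03 in replicate 2 (Ddx25), and the silencer genes 34.9 (Cbx3) and 40.7 (Atf7ip).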

How the data were processed

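CUT&RUN with an antibody to V5 used 500000 cells per sample after brief cross-linking. The authors trimmed reads with Trimmomatic (0.39), aligned them to mm10 with BWA (0.7.17), removed duplicates with Picard (2.26.6) and called peaks with MACS2 (2.2.7.1), library by library, with no input library named for the calling. The fold is a ratio deposited by the authors: summit fragments plus 1 over background plus 1. The −log10 p and −log10 q values and the score, which is 10 times the −log10 q, were also deposited by the authors. A fold refers to the background of its own library, so folds were compared within libraries.

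Every deposited peak was used, also those that fail the study's filter. Fragments at a summit were recovered by searching the background, from 0.3 to 4 in steps of 0.0005, at which folds up to 30 give whole fragments (within 0.02) and Poisson p-values equal to those deposited (within 0.02 of the −log10 p as a share of it). All such peaks matched (100.0%). The background was 1.26 and 2.04 in the Foxr2 p53LOF replicates. The lists show no read total, so the fragments at a summit set the precision of its fold.

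A promoter peak overlaps the stretch within 1 kb of any transcript start of the gene (GENCODE M21), and a region peak overlaps the gene body or 10 kb on either side. Positions are in GRCm38 (mm10), counted from 1. Counts stand beside the share of all protein-coding genes, and no test was made. The genes named are the 10, those of the wider germline and silencer lists, the nearest protein-coding gene of each peak in a region, and the flanking genes, which were added after their values were seen. Members and lists were chosen with earlier results of these data known. The alternatives changed the minimum on peaks, the placing and overlap of peaks, the windows and the transcripts, and left out each replicate. The steps were tested on simulated data. Other experiments of the study were not used here. Python 3.11.15, pandas 2.3.3, numpy 2.4.6, SciPy 1.17.1 and matplotlib 3.10.9 were used.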

Additional observations from a re-analysis of the deposited data

How the results depend on the processing

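The count of 0 of the 10 germline genes with a promoter peak in both replicates held under the study's filter, a −log10 q above 10, summits in the window, stretches covered by both replicates, each replicate alone, windows of 500 bp and 2 kb, protein-coding transcripts, and, chosen after seeing the data, the exclusion of genes with another protein-coding start within 1 kb. A window of 5 kb gave 1 (Tdrd1, through the peak at the Ccdc186 start), against 56.3% of all genes. The count with a region peak in both replicates, 4, was 1 in the gene body alone (55.7% of all genes) and 7 with 25 kb either side (70.0% of all genes), and leaving out a replicate gave 4 to 7, with 7 from replicate 2 alone. A −log10 q above 10 lowered the share of all genes with a promoter peak in both replicates from 52.3% to 34.6% and the wider germline genes from 12 to 6. The silencer count ranged from 18 to 23. No paired analysis was possible because the counts come from no test and the replicate numbers only number the libraries. Places with fewer than 6 fragments in replicate 1 or 8 in replicate 2 cannot appear in the lists. Of the peaks, 57.5% and 61.0% have folds of 6 or less, and a single Foxr2 p53LOF line was profiled.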
